A study of Mus musculus with 12 samples.

Results

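The genes of classical major histocompatibility complex (MHC) class I and of its peptide supply were followed across 12 MC38 tumors. There were 10 of them, chosen by gene symbol from 18211 genes in the expression table: the heavy chains H2-K1 and H2-D1, the light chain B2m, the peptide transporter and loading genes Tap1, Tap2 and Tapbp, the immunoproteasome subunits Psmb8, Psmb9 and Psmb10, and the transactivator Nlrc5. All 10 members were among the 13563 genes with enough counts to be tested.

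MC38 is a mouse colorectal adenocarcinoma line, grown here under the skin of female C57BL/6 mice that were 5 weeks old, and all mice carried the same graft. Mice were grouped on day 7 and each of the 4 groups gave 3 tumors. The control (CK) group received vehicle, the PB-020 group was dosed daily and orally with 50 mg/kg of PB-020, an inhibitor of IGF-1R, and anti-PD-1 mice were given RMP1-14, an antibody that blocks the T cell inhibitory receptor PD-1, as 4 injections of 200 μg per mouse between day 9 and day 18. The PB-020+anti-PD-1 group received both. The labels name no separate litters or cages, and p values measure only the spread between these tumors. In the volume data of the paper, tumors of both antibody groups were on average smaller than CK tumors at the last measurement. Those of the PB-020 group were on average larger than CK tumors. Size was not in the fits, and its part was not tested. Bulk tumor RNA was sequenced, so fewer cells of a type and less RNA per cell cannot be told apart.

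Libraries held 16545394 to 17217035 expected counts and correlated with each other at Pearson r = 0.954 to 0.992 over log2 CPM (counts scaled to library size). The epithelial and colon tumor markers were near absent: 1 of 8 passed the count filter, and their sum was 4.52 to 7.56 TPM (transcripts scaled by length and library total). CK tumor 3 carried neutrophil markers at 697 TPM, against 9.67 to 51.4 in the other libraries. Anti-PD-1 tumor 1 carried skeletal muscle markers at 977 TPM, against 16.8 to 99.2 in the others. Their part in the results below was not tested. Several counts of the single-group comparisons are given below without these tumors. For the antibody-treated against the antibody-free tumors, only tallies and ranges over all left-out libraries are given.

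Class I molecules display peptides from inside the cell to CD8 T cells. The proteasome cuts proteins into peptides, the Tap1 and Tap2 transporter carries them into the endoplasmic reticulum, and tapasin, the product of Tapbp, helps to load them onto a heavy chain paired with B2m. Interferon gamma is known to raise many of these genes through Irf1 and Nlrc5, and to exchange the constitutive catalytic subunits of the proteasome for those of the immunoproteasome.

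These genes rose together in the antibody-treated tumors. Over both backgrounds, with and without PB-020, all 10 members rose in the 6 antibody-treated tumors relative to the 6 antibody-free tumors, by 0.31 (H2-K1) to 0.89 (Psmb9) on the log2 scale (edgeR quasi-likelihood test, adjusted p = 0.0044 to 0.046). Of all genes tested, 11.8% rose in this comparison and 12.3% fell. The median log2 change was 0.69 over the members and 4.5e-05 over all genes. In 8 members the 6 antibody-treated tumors all lay above the 6 others, which held for 4.1% of genes. H2-K1 and B2m overlapped, and they were also the weakest calls: when single libraries were left out, H2-K1 stayed under the threshold in 2 of 12 fits and B2m in 3 of 12, while the other 8 members did so in all 12.

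**Figure D1:**
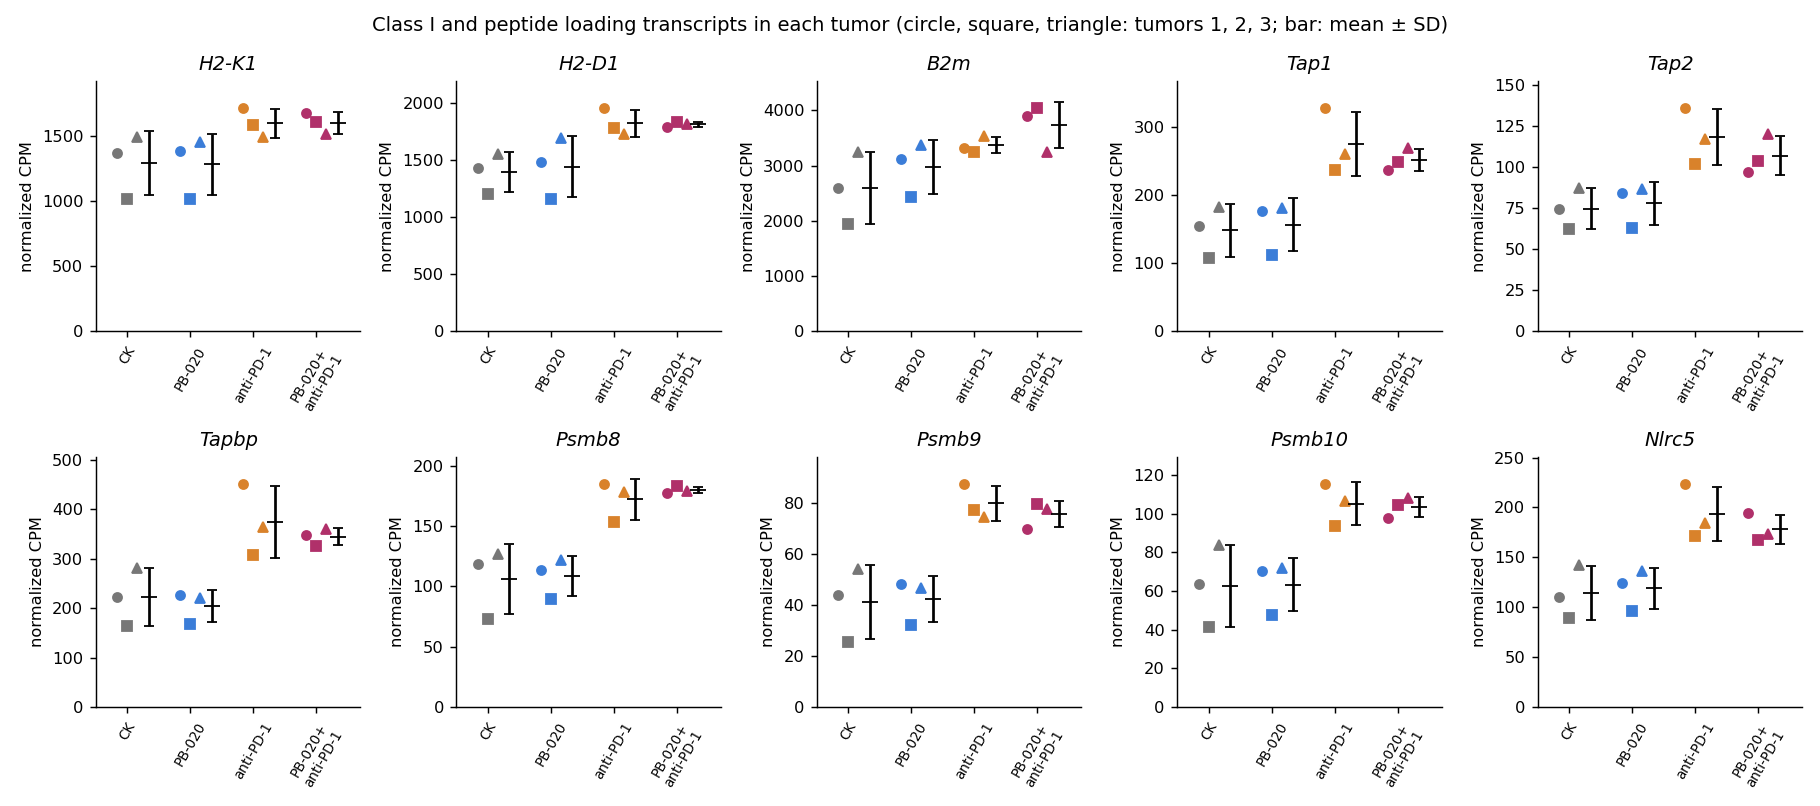
Normalized CPM of the 10 members (vertical axes, each from 0) in the 4 groups (horizontal axes), with 1 symbol per tumor and a bar for mean ± SD, n = 3. The CK and PB-020 tumors share one range and the 2 antibody groups a higher one, with overlap in H2-K1 and B2m, and the square symbols of CK and PB-020, tumor 2 of each group, are the lowest of their groups in every panel.

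Among the chain genes, B2m was the most abundant member per transcript length, at 6657 ± 1652 TPM (mean ± SD, n = 3) in CK tumors, 7246 ± 1076 with PB-020, 8568 ± 403 with anti-PD-1 and 9052 ± 791 with both. H2-D1 was at 1604 ± 192, 1568 ± 268, 2088 ± 259 and 1969 ± 70.8 TPM in the same order, and H2-K1 at 1552 ± 282, 1458 ± 247, 1913 ± 245 and 1818 ± 104 TPM. The heavy chains present the peptide and B2m, beta-2 microglobulin, keeps them folded at the cell surface. The ratio of B2m to the summed heavy chains lay between 1.92 and 2.56 in the 12 tumors on the TPM scale.

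By tumor, H2-K1 stood at 1368, 1015 and 1492 CPM in CK, 1379, 1016 and 1452 with PB-020, 1713, 1583 and 1491 with anti-PD-1, and 1673, 1608 and 1512 with both, here and below in the order of tumors 1, 2 and 3 and after trimmed mean of M values (TMM) scaling. The lowest anti-PD-1 tumor therefore sat just inside the CK range. H2-D1 read 1437, 1203 and 1555 CPM in CK, 1482, 1163 and 1695 with PB-020, 1960, 1782 and 1732 with anti-PD-1, and 1791, 1838 and 1818 with both. No antibody-treated tumor reached down into the antibody-free range for H2-D1. B2m read 2584, 1948 and 3252 CPM in CK, 3121, 2438 and 3372 with PB-020, 3321, 3253 and 3537 with anti-PD-1, and 3903, 4042 and 3250 with both. Tumor 3 of the combination group was below CK tumor 3 and PB-020 tumor 3 in B2m. The antibody-averaged log2 changes of the 3 chain genes were close to each other: 0.36 ± 0.09 (SE; adjusted p = 0.0129) for H2-D1, 0.35 ± 0.12 (adjusted p = 0.046) for B2m and 0.31 ± 0.10 (adjusted p = 0.0436) for H2-K1, all by edgeR.

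The 4 promoter stretches below are of members chosen by name. Each runs from 250 bases before to 50 after a start site in RefSeq on GRCm38.p6, 5′ to 3′ on the strand of the gene. Capitals mark matches on either strand to the letters GAAANNGAA or GAANNGAAA (forms of an interferon-response element), TTCNNNGAA (a form of the gamma-activated sequence), ATTGG (the core of an NF-Y box) and TGACG (the core of a CRE-like box). H2-K1 had 2 start sites, 14 bases apart, and the downstream one is shown.
H2-K1, chr17:34000284-34000583, minus strand: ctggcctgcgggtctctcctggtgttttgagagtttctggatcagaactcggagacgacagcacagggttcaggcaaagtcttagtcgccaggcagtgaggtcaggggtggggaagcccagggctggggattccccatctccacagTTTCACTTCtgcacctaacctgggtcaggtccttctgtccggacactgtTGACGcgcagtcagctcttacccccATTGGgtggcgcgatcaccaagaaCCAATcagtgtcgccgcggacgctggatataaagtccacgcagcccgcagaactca
H2-D1, chr17:35262844-35263143, plus strand: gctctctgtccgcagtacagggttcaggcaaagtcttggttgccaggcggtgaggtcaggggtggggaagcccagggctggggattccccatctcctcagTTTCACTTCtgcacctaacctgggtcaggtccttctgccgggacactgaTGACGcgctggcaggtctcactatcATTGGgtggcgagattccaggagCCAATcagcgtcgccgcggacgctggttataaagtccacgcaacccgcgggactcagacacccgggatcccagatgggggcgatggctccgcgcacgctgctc
B2m, chr2:122147437-122147736, plus strand: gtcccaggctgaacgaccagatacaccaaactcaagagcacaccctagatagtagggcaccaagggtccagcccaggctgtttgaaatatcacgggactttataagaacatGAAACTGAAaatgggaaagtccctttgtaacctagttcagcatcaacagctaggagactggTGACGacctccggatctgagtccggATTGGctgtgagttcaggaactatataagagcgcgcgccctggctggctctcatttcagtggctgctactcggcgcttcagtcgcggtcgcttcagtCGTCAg
Tap1, chr17:34187306-34187605, plus strand: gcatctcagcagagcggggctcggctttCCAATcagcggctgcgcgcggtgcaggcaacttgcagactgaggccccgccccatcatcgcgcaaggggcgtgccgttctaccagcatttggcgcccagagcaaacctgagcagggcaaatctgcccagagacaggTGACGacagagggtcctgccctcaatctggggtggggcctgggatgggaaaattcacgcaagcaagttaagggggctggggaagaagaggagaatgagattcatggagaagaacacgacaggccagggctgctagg

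H2-K1 and H2-D1 held the same matches in the same order, first an interferon-response form (TTTCACTTC), then the CRE-like core and then the NF-Y core in both orientations, and shared an identical run of 47 bases. TTTCACTTC matches GAANNGAAA, which was added after these sequences were seen, and neither gene held GAAANNGAA. Its match here, beside the 7.52% given below, is therefore no test. B2m held another interferon-response form (GAAACTGAA) upstream of its CRE-like and NF-Y cores. Tap1 held an NF-Y core followed by a CRE-like core, and its window is shared in 275 of its bases with that of Psmb9 on the other strand, since the 2 start sites lie 226 bases apart. Of the 8 members with a window, 6 held the NF-Y core and 5 the CRE-like core. The cores of Psmb9 are the same sites as those of Tap1, so these counts are not of independent sites. Among 32851 windows of the same length, 37.41% held the NF-Y core, 20.81% the CRE-like core, 7.73% both, 8.56% GAAANNGAA, 7.52% GAANNGAAA and 8.3% TTCNNNGAA, which Psmb8 alone of the 8 members held. Psmb10 held no match to any of these letters, and Psmb8 held neither core. The matches are a description of letters and not of binding, and were not tested against the changes. Tap2 and Nlrc5 had no window in the table.

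Of the 10 genes, 7 lie on chromosome 17 within 1348 kb, from Tapbp (33919478 to 33929290) through H2-K1 (33996012 to 34000619), Psmb9 (34182030 to 34187330), Tap1 (34187556 to 34197225), Psmb8 (34198195 to 34201454) and Tap2 (34204479 to 34216321) to H2-D1 (35263094 to 35267497). B2m is on chromosome 2 (122147687 to 122153082), and Nlrc5 (94434335 to 94527272) and Psmb10 (105935728 to 105938392) are on chromosome 8. All positions are of whole protein-coding genes on GRCm38.p6. Class I genes have close relatives, so shared sequence was counted: 0 of the 150-base stretches of 9 members occurred in the transcripts of another gene, and 35 of 1953 (1.79%) did in H2-D1, most often in H2-Q1.

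Peptide transport and loading rose by more than the chain genes in size, though the 2 sizes were not tested against each other. Tap1, one chain of the transporter, stood at 155, 107 and 183 CPM in CK, 176, 112 and 182 with PB-020, 328, 237 and 260 with anti-PD-1, and 237, 249 and 269 with both. Tap2, its partner chain, read 74.6, 62.7 and 87.5 CPM in CK, 84.5, 62.9 and 86.9 with PB-020, 136, 102 and 117 with anti-PD-1, and 97.4, 104 and 121 with both. In either gene the lowest antibody-treated tumor was above the highest antibody-free one. Tapbp, which encodes tapasin, read 222, 164 and 280 CPM in CK, 226, 167 and 221 with PB-020, 452, 308 and 363 with anti-PD-1, and 348, 327 and 359 with both, again without overlap. The antibody-averaged log2 change was 0.79 ± 0.16 (SE; adjusted p = 0.0084, edgeR) for Tap1, a 1.73-fold difference. It was 0.75 ± 0.14 (adjusted p = 0.0050, edgeR) for Tapbp and 0.56 ± 0.11 (adjusted p = 0.0056, edgeR) for Tap2. In TPM, Tapbp was the highest of the 3 at 156 ± 40.2 in CK and 263 ± 64.9 with anti-PD-1, and Tap2 the lowest at 58.3 ± 9.45 and 92.2 ± 17.997 (n = 3).

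All 3 immunoproteasome subunits rose. Psmb9 (LMP2) had the largest change of the 10 members. Its levels were 44.0, 25.6 and 54.3 CPM in CK, 48.3, 32.2 and 46.6 with PB-020, 87.6, 77.2 and 74.6 with anti-PD-1, and 69.9, 79.4 and 77.8 with both. Psmb8 (LMP7) read 119, 72.9 and 127 CPM in CK, 114, 89.9 and 122 with PB-020, 185, 153 and 178 with anti-PD-1, and 178, 183 and 179 with both. Psmb10 (MECL-1) read 63.6, 41.3 and 83.7 CPM in CK, 70.4, 47.4 and 71.9 with PB-020, 116, 93.5 and 107 with anti-PD-1, and 97.8, 104 and 108 with both. None of these 3 overlapped between antibody-treated and antibody-free tumors. The antibody-averaged log2 change was 0.89 ± 0.17 (SE; adjusted p = 0.0061, edgeR) for Psmb9, 0.71 ± 0.13 (adjusted p = 0.0044) for Psmb8 and 0.73 ± 0.17 (adjusted p = 0.0135) for Psmb10, which is 1.86, 1.64 and 1.65-fold.

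Nlrc5, a transactivator of class I promoters, was the least abundant member at 28.8 ± 6.84 TPM in CK, 28.7 ± 4.51 with PB-020, 49.4 ± 10.2 with anti-PD-1 and 43.0 ± 4.48 with both (n = 3). By tumor it read 111, 88.9 and 143 CPM in CK, 125, 96.5 and 136 with PB-020, 224, 172 and 185 with anti-PD-1, and 194, 167 and 173 with both. The antibody-treated and antibody-free tumors did not overlap, and the log2 change was 0.67 ± 0.13 (SE; adjusted p = 0.0049, edgeR).

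**Figure D2:**
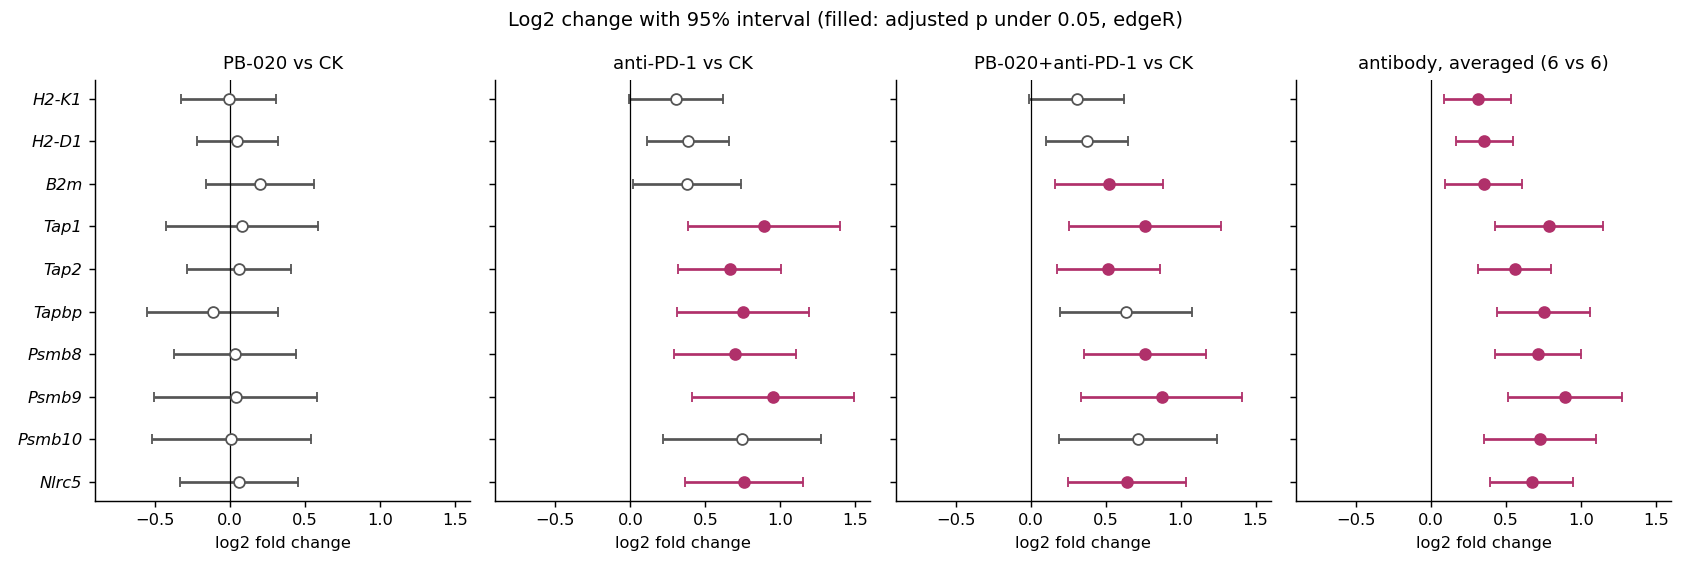
Log2 fold change (horizontal axes) of each member (vertical axis) with its 95% interval, for each treated group against CK and for the antibody averaged over PB-020. Filled points passed an adjusted p under 0.05 in edgeR: none with PB-020 alone, 6 with anti-PD-1, 6 with both and all 10 in the averaged comparison.

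Taken group by group, anti-PD-1 alone raised 6 members against CK: Psmb9 by 0.95, Tap1 by 0.89, Nlrc5 by 0.76, Tapbp by 0.75, Psmb8 by 0.70 and Tap2 by 0.66 on the log2 scale (edgeR, adjusted p = 0.0294 to 0.0449). The share of all genes that rose here was 4.18%. Psmb10 (0.74, adjusted p = 0.0807), H2-D1 (0.38, adjusted p = 0.0746), B2m (0.38, adjusted p = 0.169) and H2-K1 (0.30, adjusted p = 0.203) did not pass. In 9 members, H2-K1 being the exception, every anti-PD-1 tumor was above every CK tumor in CPM, against 13.9% of all genes. For B2m this held by a narrow margin (3253 against 3252 CPM) and not in TPM, where anti-PD-1 tumor 2 was at 8145 and CK tumor 3 at 8400. The count of 6 rested on single tumors. It was 0 without CK tumor 1, CK tumor 2, anti-PD-1 tumor 1 or anti-PD-1 tumor 3, and 2 without PB-020 tumor 1, PB-020 tumor 3 or any one combination tumor. It was 7 without CK tumor 3, and 0 when only these 2 groups were fitted.

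The combination raised 6 members against the same CK tumors: Psmb9 by 0.87, Tap1 and Psmb8 by 0.76, Nlrc5 by 0.64, and B2m and Tap2 by 0.52 (edgeR, adjusted p = 0.0198 to 0.046), where 8.35% of all genes rose. Tapbp (0.63, adjusted p = 0.0507), H2-D1 (0.38, adjusted p = 0.0542), Psmb10 (0.72, adjusted p = 0.0617) and H2-K1 (0.31, adjusted p = 0.157) did not pass. In 9 members, all but B2m, each combination tumor was above each CK tumor in CPM, against 19.6% of genes, although H2-K1 overlapped in TPM (1739 in combination tumor 2 and 1805 in CK tumor 3). The count was 0 without combination tumor 1 or 2, 1 without CK tumor 1, 2 without CK tumor 2, anti-PD-1 tumor 3 or combination tumor 3, 3 without PB-020 tumor 1, and 9 without CK tumor 3 or PB-020 tumor 2.

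Against PB-020 alone the combination was higher by 0.32 (H2-K1) to 0.84 (Psmb9) on the log2 scale, and 0 members passed in edgeR, with the smallest adjusted p = 0.0588 for Psmb8. In this comparison 1.25% of all genes rose. At an unadjusted p under 0.05 the count was 9, and 3044 of all 13563 genes passed that threshold in either direction. DESeq2 called 7 members, for which no share of all genes is given here. The same 9 members, all but B2m, did not overlap between the 2 groups, which 14.6% of genes did. In edgeR the count became 4 without CK tumor 2, 3 without CK tumor 3, and 1 without anti-PD-1 tumor 1 or 2.

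No effect of PB-020 on the level of any of these genes was detected. Against CK the members changed by -0.12 (Tapbp) to 0.20 (B2m) on the log2 scale, and 0 of 10 passed in edgeR, in DESeq2 or at an unadjusted p under 0.05. Their 95% intervals ran from -0.56 at the lowest to 0.59 at the highest, so changes of that size were not excluded. The share of all genes that rose was 0%. When PB-020 was added to the antibody, the changes against anti-PD-1 alone were -0.15 (Tap2) to 0.15 (B2m), with intervals from -0.63 to 0.51, and 0 of 10 passed by any of the 3 criteria beside 0% of all genes raised. Averaged over the antibody, the changes were -0.12 (Tapbp) to 0.17 (B2m), with intervals from -0.43 to 0.43, 0 of 10 passed by the same criteria, and again 0% of genes rose. All 10 members overlapped in each of these comparisons.

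The interaction, the antibody effect with PB-020 minus the effect without it, lay between -0.21 (Tap1) and 0.03 (Psmb8), and 0 of 10 members passed in edgeR, in DESeq2 or unadjusted, beside 0% of all genes raised. The intervals were wide, from -0.92 to 0.71 over the members.

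Within a tumor, each immunoproteasome subunit was compared with the constitutive subunit whose place it takes. Per TPM, the geometric mean of Psmb8/Psmb5 was 1.11 in CK, 1.23 with PB-020, 2.09 with anti-PD-1 and 2.05 with both. Psmb9/Psmb6 was 0.481, 0.470, 0.953 and 0.896, and Psmb10/Psmb7 was 0.359, 0.350, 0.631 and 0.523. Antibody-treated tumors were above all antibody-free ones in Psmb8/Psmb5 and Psmb9/Psmb6, and overlapped in Psmb10/Psmb7, where CK tumor 3 reached 0.510 and combination tumors 1 and 2 stood at 0.491 and 0.478. The log2 ratios rose by 0.83, 0.96 and 0.70 (two-sided exact permutation test of 6 against 6 tumors within PB-020 status, p = 0.005 each, the smallest its 400 arrangements allow, and 0.00875 adjusted over 7 ratios). The constitutive genes themselves did not pass: Psmb5 changed by -0.09, Psmb6 by -0.02 and Psmb7 by 0.08.

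Tap1 also gained on Tap2. The ratio was 1.63 in CK, 1.66 with PB-020, 1.93 with anti-PD-1 and 1.97 with both, the log2 difference was 0.25 (exact permutation, p = 0.005, adjusted 0.00875), and no antibody-treated tumor overlapped an antibody-free one. Between the chain genes no shift with the antibody was detected. H2-K1/B2m differed by -0.04 (exact permutation p = 0.55, adjusted 0.642), H2-D1/B2m by 0.00082 (p = 0.995, adjusted 0.995) and H2-K1/H2-D1 by -0.04 (p = 0.365, adjusted 0.511). By tumor, H2-K1/B2m ran from 0.215 to 0.249 in CK and from 0.194 to 0.207 with PB-020. It ran from 0.197 to 0.244 with anti-PD-1 and from 0.187 to 0.218 with both. The ratios were not tested for PB-020.

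**Figure D3:**
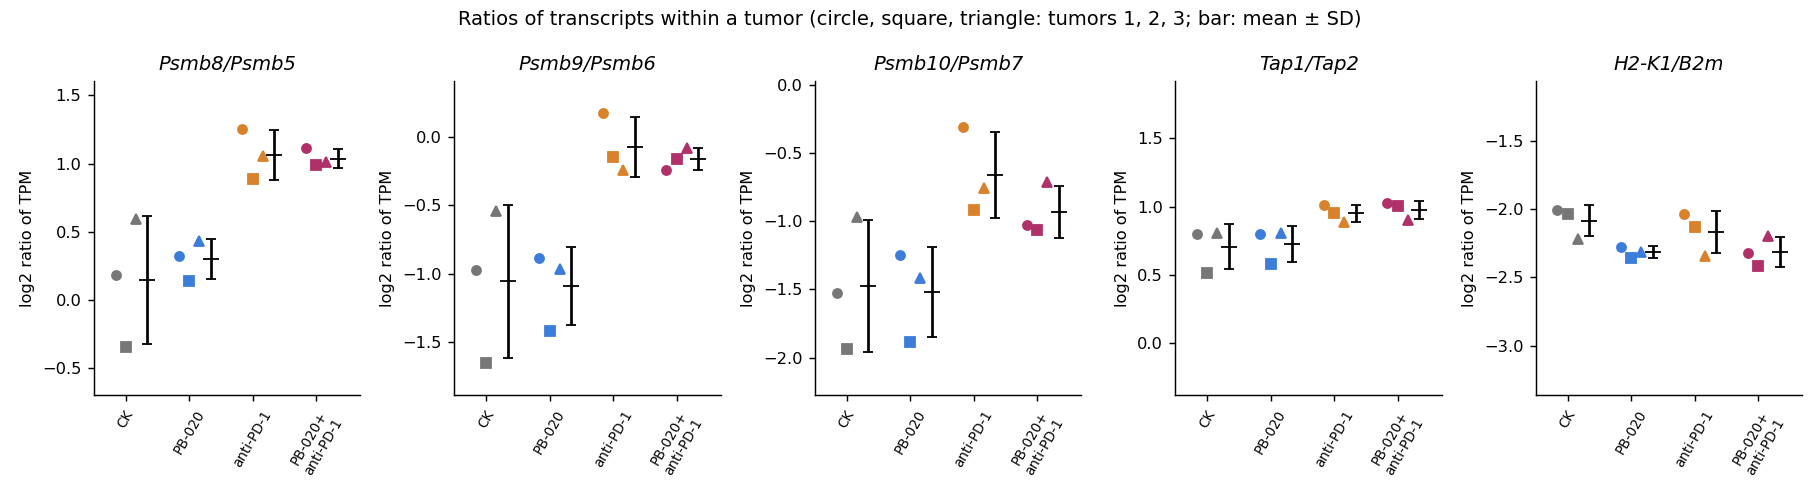
Log2 ratio of TPM (vertical axes, all spanning the same range) for 5 gene pairs in the 4 groups, with 1 symbol per tumor and a bar for mean ± SD, n = 3. The immunoproteasome to constitutive ratios and Tap1/Tap2 are higher in both antibody groups, and H2-K1/B2m shows no such step.

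The members varied together from tumor to tumor. Over the 45 pairs, Pearson's r of log2 CPM across the 12 libraries had a median of 0.95 (0.76 to 0.99), and after each group's mean was taken out the median was 0.88 (0.62 to 0.97). These values are a description, since the points share libraries and scaling. CK tumor 2 and PB-020 tumor 2 were below the CK mean in all 10 members, with median log2 differences of -0.39 and -0.28, and CK tumor 3 was above it in all 10 with a median of 0.34. Anti-PD-1 tumor 1 was the highest tumor, with a median of 0.91. The genes whose log2 CPM followed the members most closely over the 12 libraries, by mean r to the 10 members, were Gbp6, Gbp5, Irgm1, Gbp3, Gbp7, Ifi47, H2-T23, Batf2 and Gm12250 (mean r = 0.948 to 0.960).

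The rest of the pathway moved unevenly in the antibody-averaged comparison, in which 11.8% of all genes rose. Of 16 partners of peptide trimming and loading, 3 rose and 1 fell, with a median log2 change of 0.01. Tapbpl, a tapasin relative that edits peptides, rose by 0.82 (SE 0.12, edgeR adjusted p = 0.0016), Erap1, which trims peptides in the endoplasmic reticulum, by 0.59, and Lap3, a cytosolic aminopeptidase, by 0.34. Sec61a1, a translocon subunit, fell by 0.21. The chaperones of the loading complex did not pass: calreticulin (Calr) changed by -0.03, calnexin (Canx) by -0.03 and Pdia3 by 0.04.

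Of 4 proteasome activators, 3 rose. Psme2, a subunit of the PA28 cap, rose by 0.68 (SE 0.10, adjusted p = 0.0017, edgeR), its partner Psme1 by 0.49 and Psme3 by 0.19, against a median of 0.34 for the list. Of 12 other core proteasome genes, counting the assembly factor Pomp with the subunits, 2 rose, Psma1 by 0.23 and Psma5 by 0.16, with a list median of 0.08. Of the 3 constitutive catalytic subunits, 0 passed in edgeR adjusted or unadjusted, and their median was -0.02.

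Of 14 regulators of class I promoters, 3 rose and 1 fell, with a median of 0.08. Irf1, an interferon-induced transcription factor, was at 121 to 186 TPM in CK, 144 to 167 with PB-020, 236 to 395 with anti-PD-1 and 231 to 267 with both, and rose by 0.79 (SE 0.13, adjusted p = 0.0029, edgeR). Ciita, the class II transactivator, rose by 0.96 and Irf2 by 0.23. Rfxank, a subunit of the RFX complex on class I and II promoters, fell by 0.21, whereas Rfx5, another subunit, changed by 0.03 and did not pass.

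Of 6 genes of interferon gamma input, 3 rose, with a median of 0.15. Ifng itself was at 1.31 to 1.46 TPM (13 to 15 counts) in CK, 1.47 to 3.14 with PB-020, 2.69 to 10.3 with anti-PD-1 and 3.55 to 6.49 with both, so PB-020 and anti-PD-1 tumors overlapped. It rose by 1.73 (SE 0.31, adjusted p = 0.0026, edgeR), Socs1, a feedback inhibitor, by 0.91 and the receptor chain Ifngr2 by 0.18. Of 15 class Ib genes 11 were tested, 6 rose and 1 (Mr1, by 0.25) fell, with a median of 0.57. H2-Q6 rose by 1.42, H2-Q7 by 1.09 and H2-T24 by 0.83, values that are uncertain because relatives among the H2-Q and H2-T genes can share reads.

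**Figure D4:**
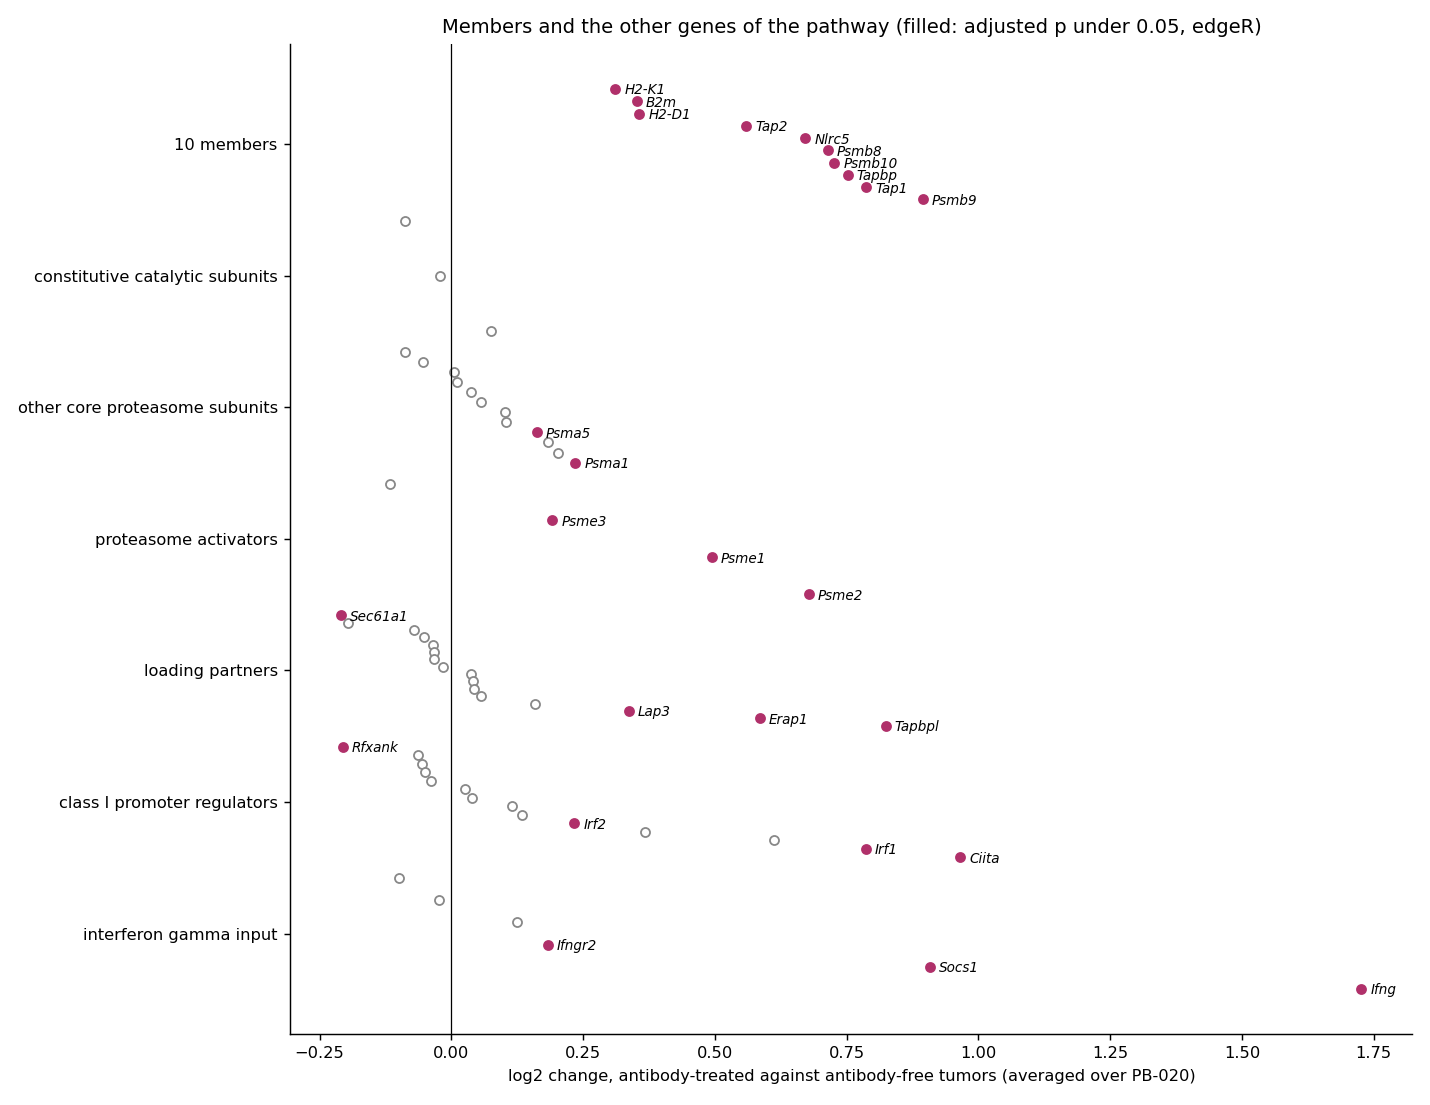
Log2 change of antibody-treated against antibody-free tumors (horizontal axis), 1 point per tested gene of the members and of 6 companion lists (vertical axis). Filled and named points passed an adjusted p under 0.05 in edgeR: the 10 members lie between 0.31 and 0.89, while the constitutive and most core proteasome subunits lie near 0.

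Markers of T cells, like the members, were higher in the antibody-treated tumors. Unlike the members, their summed level was also higher in every PB-020 tumor than in every CK tumor. Of 10 T cell markers 9 rose in the antibody-averaged comparison, with a median of 1.34, and Cd4 (0.85, edgeR adjusted p = 0.0524) did not pass. Beside these and the counts below, 11.8% of all genes rose in this comparison and 12.3% fell. A single call among 4 or 5 markers cannot be told apart from these shares. Cd8a, a chain of the CD8 co-receptor, rose by 1.28 (SE 0.25, adjusted p = 0.0063, edgeR). The summed level of the list was 26.0 to 35.4 TPM in CK, 36.1 to 44.1 with PB-020, 55.3 to 150 with anti-PD-1 and 65.5 to 101 with both, with no defining marker at 0 in any tumor. Of the 3 pan-leukocyte markers 2 rose (sums 173 to 214, 166 to 179, 186 to 348 and 222 to 258 TPM in the same order), and of 6 dendritic cell markers 3 rose (sums 17.2 to 20.2, 14.03 to 19.1, 19.8 to 28.6 and 21.1 to 22.6 TPM). Of 5 NK cell markers 1 rose (Klrd1, by 1.33, with list sums of 13.6 to 16.1, 11.04 to 19.5, 15.4 to 35.0 and 26.9 to 37.9 TPM), and of 7 macrophage markers 0 passed in edgeR, adjusted or unadjusted (sums 767 to 986, 692 to 758, 697 to 1389 and 802 to 835 TPM). Of 6 fibroblast markers 3 fell, Col3a1 by 1.29, Pdgfra by 0.62 and Pdgfrb by 0.35, and the other 3 had positive changes that did not pass (Lum 1.29, Col1a1 0.87 and Dpt 0.82, edgeR adjusted p = 0.0811 to 0.185). The list had sums of 2317 to 3107 TPM in CK, 2000 to 2232 with PB-020, 844 to 1869 with anti-PD-1 and 896 to 1355 with both, of which Col3a1 alone made up 2433 ± 329 TPM in CK and 778 ± 136 with both (n = 3). All 5 erythroid markers fell, with sums of 1218 to 2760, 768 to 1840, 180 to 727 and 224 to 305 TPM. Of 5 keratinocyte markers 4 were tested and 1 rose, Krt14 by 0.76 (SE 0.12, edgeR adjusted p = 0.0022). The list's sums were 145 to 208 TPM in CK, 186 to 235 with PB-020, 236 to 324 with anti-PD-1 and 294 to 363 with both, without overlap between antibody-treated and antibody-free tumors. Krt14 made up most of each group's sum, and other markers of the list were at 0 in 5 of the 12 tumors. The part of these cell types in the change of the members was not tested.

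In the mean log2 level of the transport, loading and immunoproteasome genes relative to CK, antibody-free tumors lay between -0.46 and 0.36 and antibody-treated ones between 0.64 and 1.01. For the chain genes these ranges were -0.31 to 0.29 and 0.33 to 0.47. The first mean minus the second was -0.15 to 0.11 in antibody-free and 0.22 to 0.57 in antibody-treated tumors, which is a description with no test.

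**Figure D5:**
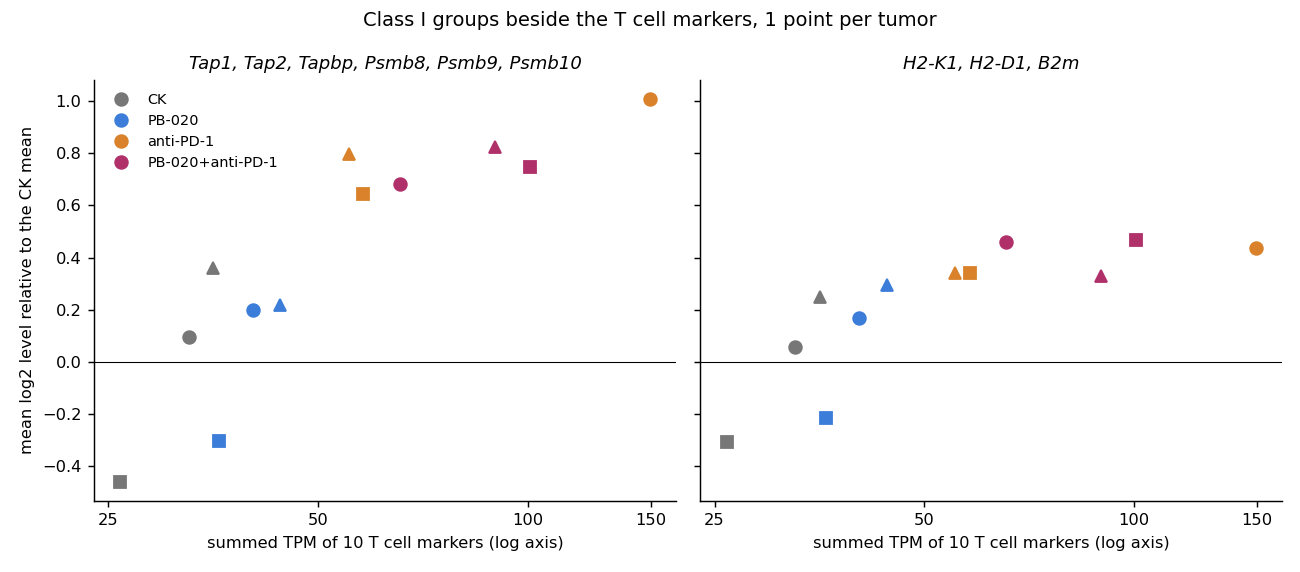
Mean log2 level relative to the CK mean (vertical axis) of the transport, loading and immunoproteasome genes (left) and of the chain genes (right) against the summed TPM of 10 T cell markers (horizontal log axis), 1 point per tumor with symbols for tumors 1, 2 and 3. The antibody-treated tumors lie to the right of and above the antibody-free ones in both panels, and anti-PD-1 tumor 1 is farthest to the right.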

How the data were processed

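RNA of 12 bulk tumors was sequenced on an Illumina instrument as paired reads of 150 bases. The methods name alignment with Bowtie2 at default settings, RSEM, and mm10 or hg19, and the submitters' processing notes name HISAT, Bowtie2 and GRCm38.p6; the annotation, counting strand and tool versions are not given in the sources used here. The authors deposited RSEM expected counts (exactly whole, with no tolerance, in 91.0% of values), FPKM and TPM for each tumor, and group means that were not used.

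The expected counts were rounded and fitted with edgeR 4.0.16 in R 4.3.3 (filterByExpr, minimum count 10, TMM scaling, robust quasi-likelihood, 4 group means over all 12 libraries), with Benjamini-Hochberg adjustment over 13563 genes. Averaged comparisons weight both backgrounds equally. CPM values are TMM-scaled, and TPM was used for levels between genes and for ratios. The fits were tested on simulated data. DESeq2 1.42.0 and limma 3.58.1 on log2(FPKM + 1) or log2(FPKM + 0.1), other filters and scalings, a replicate block and leaving out each library were alternatives. Sequences and positions came from RefSeq, matched by gene number for 18091 of 18211 genes.

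The members, lists and named genes were chosen with earlier results of these data known. One item of the lists is not reported here. Named were all members, genes of the pathway and T cells chosen by name, up to 3 genes per list with the smallest p in the antibody-averaged comparison, the genes most like the members, and any gene that completes a count of 5 or fewer, chosen after its value was seen. The motif GAANNGAAA was added after the sequences were seen. Intervals and errors cover counting error and the spread between tumors only.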

Additional observations from a re-analysis of the deposited data

How the results depend on the processing

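The 10 members called in the antibody-averaged comparison stayed at 8 to 10 under every alternative, and in the comparisons of PB-020 with CK, of the combination with anti-PD-1, of PB-020 averaged and in the interaction 0 members were called in every fit. Counts of the single-group comparisons moved. For anti-PD-1 against CK (6), the count was 2 with no filter, 0 with only the groups compared, and 0 to 7 with 1 library left out. For the combination against CK (6), it was 2 with no filter, 3 with library size alone, 3 with only the groups compared, and 0 to 9 with 1 library left out. For the combination against PB-020 (0), it was 7 in DESeq2, 5 with only the groups compared, 5 with the replicate block, and 0 to 4 with 1 library left out. The cause was not tested, and the shares of all genes called under these alternatives are not given here. No member changed direction in an antibody comparison.

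Over all genes, deviations of same-numbered tumors correlated above 0.1 in 2 of 18 pairs (median -0.037). Over the members, tumor 2 had the lowest median log2 level relative to CK in each group. These medians were -0.39 in CK, -0.28 with PB-020, 0.54 with anti-PD-1 and 0.63 with both. Whether same-numbered tumors shared a step that moved the members was not tested. The replicate block gave 7 members for anti-PD-1 against CK, 9 for the combination against CK and 10 averaged. In the replicate block by sign flips of 6 pairs, the log2 ratios kept their values of 0.83 (Psmb8/Psmb5), 0.96 (Psmb9/Psmb6), 0.70 (Psmb10/Psmb7) and 0.25 (Tap1/Tap2), with p = 0.0312, the smallest an exact test of 64 flips gives, and 0.0547 adjusted over 7 ratios. H2-D1/B2m became -0.0025 with expected counts. With 1 library left out, H2-D1/B2m ran from -0.048 to 0.044, H2-K1/B2m from -0.073 to 0.0035, H2-K1/H2-D1 from -0.071 to -0.020, Psmb8/Psmb5 from 0.71 to 0.94, Psmb9/Psmb6 from 0.81 to 1.09, Psmb10/Psmb7 from 0.58 to 0.82 and Tap1/Tap2 from 0.20 to 0.27. Depth was near equal in all libraries, and Ifng, with 13 to 97 counts, was the gene named that it limits most.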
